A study of Mus musculus with 1989 samples.

Results

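The onset cells described here were 150 thymocytes chosen for transcripts that a double-positive (DP) thymocyte makes when positive selection begins. They came from 1 droplet library of single-cell RNA sequencing (scRNA-seq), whose deposited table held 8846 genes in 1993 cells with 1993 distinct barcodes. A chemokine receptor of mature cells (Ccr7) and a pair of cell cycle genes (Mki67 and Top2a) were at 0 in 762 cells. Among these 762 eligible cells, the onset cells were those with the highest mean log2 value over Cd28, Rgs10, Cd5, Id3, Tespa1 and Ikzf2. Measured values of these genes therefore chose the cells, so their levels describe the choice and are not results.

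The library was made from whole thymus of male C57BL/6 mice, labelled 7 weeks old, without sorting, treatment or genetic change. The same study profiled open chromatin in single thymocytes sorted as double negative (DN), DP, CD4 or CD8. No label tied a cell to an animal. The library therefore counted as 1 sample, no test across animals was possible, and each standard deviation (SD) below is over cells.

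A DP thymocyte carries both coreceptors, CD4 and CD8, and rearranges its T cell receptor (TCR) alpha locus with the RAG recombinase until the receptor engages a self peptide held by a major histocompatibility complex (MHC) molecule. A suitable signal ends rearrangement, protects the cell from death and starts its differentiation into a CD4 or CD8 single-positive T cell. Surface CD5 and CD69 and the Egr and Nr4a transcription factors are known to be induced by this signal, and the Id3 protein, which blocks E proteins, is made downstream of Egr1.

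The reference groups were drawn from the same library. The 150 later selected cells were the eligible cells outside the onset cells with the highest mean of Itm2a and Bcl2. The 150 rearranging cells were those of the remainder with the highest mean of Arpp21, Endou, Rmnd5a and Mier1, and the mature cells, 10.1% of the table, had Ccr7 above 0 with Mki67 and Top2a at 0. The deposited values were quantile-normalized, so each value was also replaced by its rank among the distinct values of its cell. These steps stand in for molecule counts. Their median was 1930 in onset, 1946 in rearranging, 2013 in later selected and 2133 in mature cells, with medians of 4.18% to 4.56% in mitochondrial genes. These genes are in the table although the methods state that mitochondrial RNA was removed, so what this share measures is uncertain. Every cell was thinned to 1300 steps before shares of cells with a gene were compared. Intervals are exact 95% binomial ranges for counting error alone.

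RNA freed from broken cells reaches every droplet. Its level was read from the 30 cells with the highest mean of the MHC class II genes Cd74, H2-Aa, H2-Ab1 and H2-Eb1, which are antigen-presenting cells (APCs) by these genes. They were chosen after their values had been seen and were deeper, with a median of 2843 steps. After thinning, 20.0% of them still had Rag1, 43.3% Dntt, 83.3% Ly6d, 43.3% Cd8a, 66.7% Cd8b1 and 13.3% Cd4. Where the interval of an onset share overlaps that of class II cells, the onset share could not be told apart from free RNA at this depth. Class II cells may also make some of these transcripts themselves. Ly6d was more frequent in them (65.3% to 94.4%) than in onset cells (30.2% to 46.3%), and so was Ly6e, at 100% (88.4% to 100%) against 69.3% (61.3% to 76.6%), so for this pair they give no level of free RNA.

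The score that chose the onset cells fell smoothly across the limit. It ran from 3.48 to 1.33 among the members, with a median of 1.94, whereas the other eligible cells had a median of 0.604. The lowest members stood at 1.337 and 1.332 and the highest cells outside at 1.329 and 1.327, so no gap separated the cells just inside from those just outside. All 6 genes were above 0 in 45 members, 5 in 66, 4 in 35 and 3 in 4. Rgs10 gave the largest term of the score in 55 cells, Cd28 in 30, Ikzf2 in 25, Id3 in 24, Tespa1 in 12 and Cd5 in 4.

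Each rule gene has a known place around the TCR. Cd28 encodes the main costimulatory receptor, and its log2 value was 2.38 ± 1.03 (SD, n = 150 cells), with a median of 2.44 and a range from 0 to 4.52. Rgs10, a regulator that shortens G protein signals, had a log2 value of 2.63 ± 1.18, a median of 2.77 and a range from 0 to 4.84. Cd5, a surface receptor that dampens TCR signals, had 1.39 ± 1.08, with a median of 1.21 and a highest value of 3.72. Every one of these genes was at 0 in some members, so no single gene defined the group. Id3 had a log2 value of 1.75 ± 1.38 and a highest value of 4.94. Tespa1, which couples the TCR to calcium release, had 1.88 ± 1.06 and a highest value of 3.87. Ikzf2, an Ikaros family factor also called Helios, had the widest spread, at 1.82 ± 1.57, with a highest value of 5.27.

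**Figure D1:**
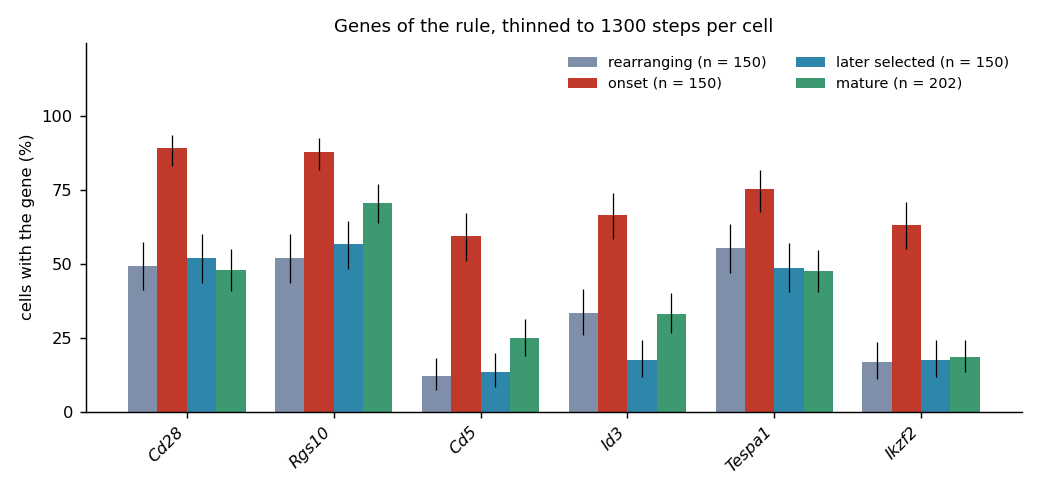
Bars show the percent of cells with each gene of the rule after every cell was thinned to 1300 steps, in rearranging, onset, later selected and mature cells, and lines show exact 95% binomial intervals. The onset bars are highest because these genes chose the cells.

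To describe how far the rule genes went together, the 150 cells were drawn again with 1 gene of the rule left out. Between 131 and 141 of them were onset cells and the rule genes had been chosen as a set, so these values describe the choice and support nothing. Cd5 was then present in 54.0% of the cells chosen by the other genes (45.7% to 62.2%) and in 12.4% of the remaining eligible cells. Ikzf2 was present in 54.7% against 19.3%, and Id3 in 54.7% against 31.5%. Cd28 gave 79.3% against 46.9%, Rgs10 80.0% against 51.8% and Tespa1, the closest pair, 66.0% (57.8% to 73.5%) against 47.6% (43.5% to 51.6%).

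The label DP was checked with the coreceptor genes. As deposited, 53 of the 150 onset cells (35.3%) had Cd4 together with Cd8a or Cd8b1 above 0, 80 had a Cd8 gene alone, 5 had Cd4 alone and 12 had neither. After thinning, both were found in 26.0% of onset cells (19.2% to 33.8%), 54.7% of rearranging cells (46.3% to 62.8%), 18.0% of later selected cells and 20.3% of mature cells (15.0% to 26.5%). The share with both thus did not set the onset cells apart from mature cells beyond counting error. The rule used no coreceptor gene, so the name DP is a label that these values do not bear out. Taken singly, Cd8a and Cd8b1 were each 0.29 higher in mean log2 value than in mature cells, and Cd4 differed by -0.11. The share in class II cells was 13.3%, with a wide interval of 3.76% to 30.7%.

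Promoter sequences are shown for Cd5 and Id3, because TCR signals are known to induce both genes and an open chromatin peak covered each window. Sequences are from RefSeq on build GRCm38.p6 and run 5′ to 3′ on the strand of the gene, across its RefSeq start. Capitals mark matches to the E box letters CAGNTG, which E proteins recognize and which Id3 protein keeps them from binding. Cd5 is at chr19:10738925-10739224 on the minus strand and Id3 at chr4:136143572-136143871 on the plus strand. GENCODE vM21 starts the Id3 gene upstream of this window, at 136143497.
Cd5: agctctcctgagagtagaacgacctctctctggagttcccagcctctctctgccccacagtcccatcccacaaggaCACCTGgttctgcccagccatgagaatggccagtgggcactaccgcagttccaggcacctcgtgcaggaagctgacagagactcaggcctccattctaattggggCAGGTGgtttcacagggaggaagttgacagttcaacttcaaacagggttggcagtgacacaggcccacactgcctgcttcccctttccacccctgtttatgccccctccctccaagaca
Id3: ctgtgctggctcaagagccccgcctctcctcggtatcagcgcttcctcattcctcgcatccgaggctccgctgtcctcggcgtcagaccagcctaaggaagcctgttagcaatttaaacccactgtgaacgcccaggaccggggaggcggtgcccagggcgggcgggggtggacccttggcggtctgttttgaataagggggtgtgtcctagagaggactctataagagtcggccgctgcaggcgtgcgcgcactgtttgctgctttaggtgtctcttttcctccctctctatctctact
The Cd5 window held 2 matches and the Id3 window 0. Both strands were searched, and 51.4% of 32851 promoters of this length hold CAGNTG. Neither window held the Egr letters GCGNGGGCG, found in 5.55% of promoters, or the Runx letters TGTGGT, found in 16.8%. The window of Rgs10 held none of these 3 motifs. A match describes letters and is not a binding site.

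Against the rearranging cells, the onset cells had lower values of Rag1, Dntt and other preselection genes, of the coreceptors and of Ly6d, Ly6e and Thy1, and higher values of Cd2, Cd53, actin genes and 5 TCR-induced genes. Genes above 0 in 20% or more of the cells of 1 group were compared. A gene was called when its mean log2 values differed by at least 0.25. Of 2347 genes, 160 (6.82%) were higher and 161 (6.86%) lower in onset cells, with a median difference of 0.01 over all of them. Because that filter can pass a gene through onset cells alone, each gene list is counted below over all its genes in the table. With no filter, 1.85% of 8831 genes were higher and 1.82% lower, and the list counts are to be read against these percentages.

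Many differences were smaller against a broader reference. The rearranging cells were chosen for high preselection genes. Against all other eligible cells, 51 of the 85 named genes called here were called in the same direction, 27 had the same sign but differed by less than 0.25, and 7 took the opposite sign. The difference was more than 1.5 times smaller, with the same sign, for 47 of the 85. Those no longer called included Cd4, Lck, Tcf7, Myb, Cd247, Cd3g, Rag2, Ptcra, Themis, Bcl2l1, Ccnd3 and Eno1.

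Many genes of the recombination and preselection list were lower. Of the 16 genes of recombination and the preselection DP stage in the table, 10 were lower and 0 higher, with a median difference of -0.38. Lig4, a ligase of end joining, differed by -0.13, Nhej1, a cofactor of that ligase, by 0.01, and Cd24a, a surface protein of immature thymocytes, by 0.21. Against all other eligible cells Rag2, Ptcra, Themis and Ets2 were no longer called. Rag1, a subunit of the recombinase, had a mean log2 value of 0.39 ± 0.71 and a median of 0 in onset cells against 2.32 ± 1.17 in rearranging cells, a difference of -1.93 that came to -0.94 against all other eligible cells. It was found in 27.3% of onset cells (20.4% to 35.2%) and 81.3% of rearranging cells. The onset share overlapped the 20.0% of class II cells (7.71% to 38.6%), so it could not be told apart from free RNA. Rag2, the other subunit, was found in 6.00% against 27.3%.

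Dntt, which adds untemplated bases at the joints, had a mean of 0.73 ± 0.97 in onset cells and 2.55 ± 1.20 in rearranging cells. The difference was -1.82, and -1.17 against all other eligible cells. Its share of 37.3% in onset cells (29.6% to 45.6%) was not told apart from the 43.3% of class II cells (25.5% to 62.6%). Ly6d, a surface protein anchored by lipid, differed by -2.11, or -1.29 against all other eligible cells, and was found in 38.0% against 87.3%. Xrcc6, the Ku70 subunit of DNA end joining, was found in 18.0% (12.2% to 25.1%) against 58.0%. Tcf12, which encodes the E protein HEB, was found in 24.0% against 58.0%. Ptcra, the pre-TCR alpha chain, was found in 1.33% against 20.7%, and Aqp11, a water channel gene, in 24.7% against 65.3%. Thy1 and Ly6e, which encode further surface proteins anchored by lipid, differed by -1.36 and -1.55, or by -0.83 and -1.12 against all other eligible cells.

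All 3 coreceptor genes were lower than in rearranging cells. Cd8b1, the beta chain of CD8, had a mean of 1.91 ± 1.52, a median of 1.82 and a range from 0 to 5.42 in onset cells against 4.22 ± 0.81 in rearranging cells, a difference of -2.32 that came to -1.12 against all other eligible cells. Its share was 65.3% against 100%, and the class II cells gave 66.7% (47.2% to 82.7%), so the onset share could not be told apart from free RNA. Cd8a, the alpha chain, had a mean of 1.41 ± 1.27 against 3.06 ± 0.88, and its difference came to -0.70 against all other eligible cells. Cd4 had 0.50 ± 0.77 against 1.05 ± 0.94 and was found in 29.3% (22.2% to 37.3%) against 54.7%. The onset interval of Cd4 overlapped that of class II cells, so this share could not be told apart from free RNA either. The Cd4 difference had the opposite sign, 0.21, in the 47 onset cells with Cd4 and Cd8a above 0, which selects for Cd4.

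The chains of the TCR complex split in both directions. Of the 7 genes, 3 were higher and 3 lower. Trac, the constant region of the TCR alpha chain, had a mean of 2.48 ± 1.04, a median of 2.52 and a range from 0 to 4.52 in onset cells, against 1.26 ± 1.15 in rearranging cells. It was found in 84.7% of onset cells (77.9% to 90.0%) against 54.7% and 26.7% of class II cells. Cd3d, a CD3 signaling chain, was higher at 3.26 against 2.82 and Cd3g at 2.56 against 2.26. The beta chain constant regions were lower, Trbc1 at 3.12 against 3.94 and Trbc2 at 5.11 against 5.38. They are near copies whose reads can be shared, so their separate values are uncertain. The Trbc2 difference took the opposite sign, 0.23, against all other eligible cells. Cd247, the zeta chain, was 1.02 against 1.30.

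Some TCR-induced genes were higher in onset cells. Of the 27 listed genes in the table that no gate used, 5 were higher (Dusp2, Cd69, Nab2, Egr1 and Nr4a1) and 0 lower, with a median difference of 0.07 and a range from -0.05 to 0.59. Cd69, which holds activated thymocytes in the tissue, had a mean log2 value of 0.52 ± 1.00, a median of 0 and a highest value of 4.67. It was found in 22.7% of onset cells (16.2% to 30.2%) against 2.00% of rearranging cells (0.414% to 5.73%) and 6.67% of class II cells. The intervals of onset and class II cells overlapped, so the onset share of Cd69 could not be told apart from free RNA. Egr1, an immediate early factor, was found in 19.3% (13.3% to 26.6%) against 2.67% (0.731% to 6.69%). Nab2, a corepressor of Egr factors, was found in 24.0% against 0.667%. Dusp2, a phosphatase that ends MAP kinase signals, was found in 43.3% against 17.3%.

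Most of these genes were therefore at 0 in most onset cells at this depth. Nr4a1, also called Nur77, was above 0 in too few cells to pass the filter and was found in 14% (8.88% to 20.6%) against 1.33% (0.162% to 4.73%). Egr2 was found in 6.00% against 0 of 150 rearranging cells, where the upper limit at 3 cells is 2.00% of cells with signal. Egr3 was found in 1.33% of onset cells. Of the listed stress genes, which dissociation of tissue can induce, 8 of 12 were in the table and all 8 were found in at least 1 onset cell. Their summed log2 value had a median of 1.58 and reached 5.28 in onset cells, against 1.02 and 4.29 in rearranging cells, where Fos and Jun were at 0 in every cell. Their part in the Egr1 and Cd69 values was not tested.

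Cd2 and several genes of the actin list had some of the largest excesses over rearranging cells. Cd2, an adhesion receptor of T cells, had a mean of 1.78 ± 1.13, a median of 1.87 and a range from 0 to 4.09, against 0.29 ± 0.55 in rearranging cells. It was found in 77.3% of onset cells (69.8% to 83.8%), 18.7% of rearranging cells (12.8% to 25.8%) and 20.0% of class II cells. Cd53, a tetraspanin of leukocytes, was found in 39.3% against 4.67%, but also in 36.7% of class II cells. Against all other eligible cells the differences of Cd2 and Cd53 were 1.06 and 0.41. Of 20 actin and thymosin genes in the table, 13 were higher and 0 lower, with a median difference of 0.33. Tmsb10, a thymosin that binds actin monomers, had the largest difference of all genes compared, 3.32, which came to 1.83 against all other eligible cells. Its mean was 4.99 ± 1.60 with a median of 5.82 in onset cells and 1.67 ± 1.17 in rearranging cells. Pfn1, a profilin, had 4.61 against 3.53, Actg1, a cytoplasmic actin, 3.53 against 2.42, and Arpc2, a subunit of the actin-branching Arp2/3 complex, 2.16 against 1.18. Sept7, a septin of the cell cortex, had 1.20 against 0.35.

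Transcription factors changed in both directions. Of 18 lineage and identity factors in the table, 3 were higher and 4 lower. Tox, needed for development of CD4 lineage cells, was found in 51.3% of onset cells (43.0% to 59.6%) and 10.7% of rearranging cells (6.22% to 16.7%). Lef1, a partner of TCF1, was found in 64.7% (56.5% to 72.3%) against 30.7%. Gata3, required for CD4 lineage cells, was found in 34.7% against 8.67%. The class II cells gave 6.67%, 10.0% and 10.0% for these genes. Ikzf1, the founding Ikaros factor, was found in 57.3% against 32.0%. The lower factors were Bcl11b at 1.46 against 2.29, Tcf7 at 2.07 against 2.50, Satb1 at 3.27 against 3.59 and Myb at 0.62 against 0.92. The Satb1 difference took the opposite sign, 0.26, against all other eligible cells. The lineage deciding genes Zbtb7b and Runx3 were too rare to be compared with rearranging cells, at 2.67% and 5.33% of onset cells.

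**Figure D2:**
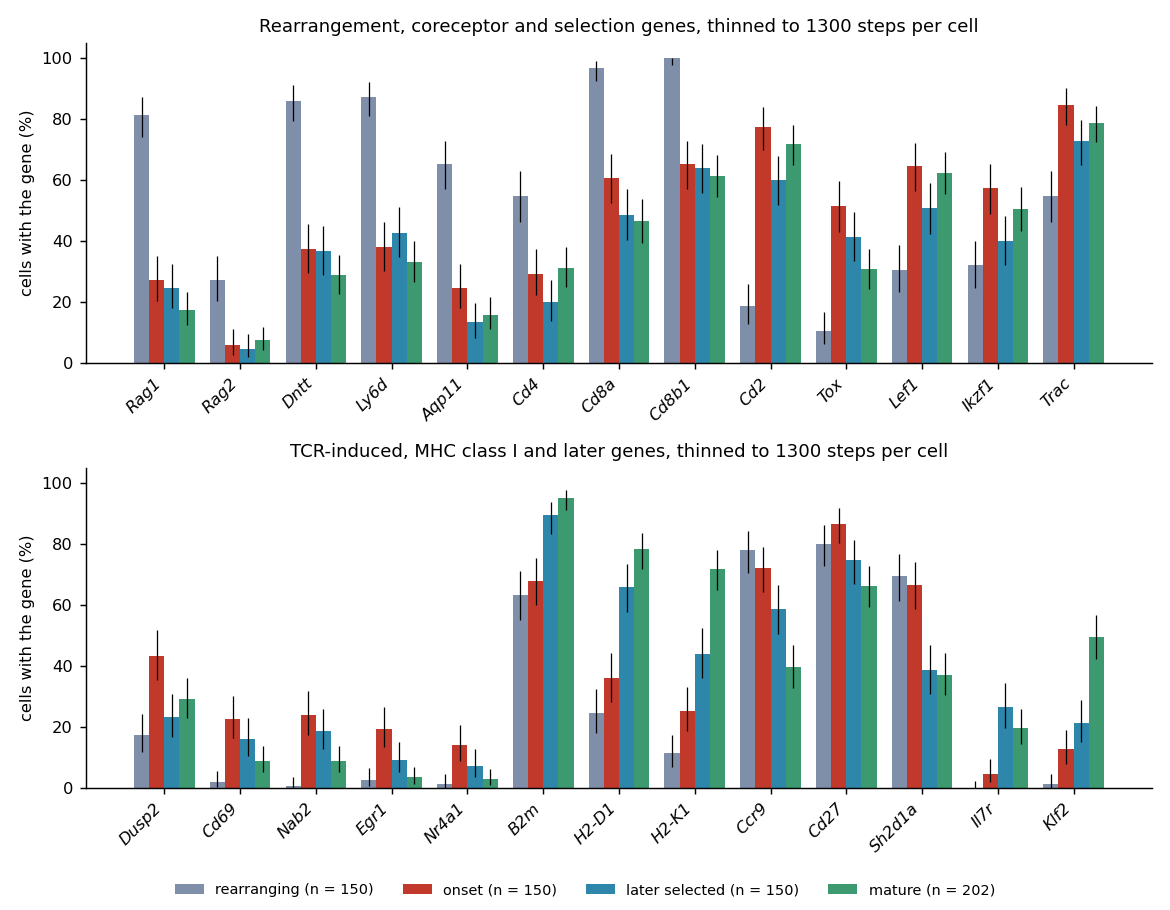
Bars show the percent of cells with each gene after thinning to 1300 steps, in rearranging (n = 150), onset, later selected and mature cells, with exact 95% binomial intervals. Rag1 is at 27.3% of onset cells against 81.3% of rearranging cells, whereas Cd2 is at 77.3% against 18.7%, and H2-K1 is at 25.3% of onset cells against 71.8% of mature cells.

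Signaling genes near the receptor went in both directions. Of 36 in the table, 5 were higher (Cd6, Csk, Rasgrp1, Ptprc and Ptpn6) and 3 lower (Lck, Lat and Cbl), with a median difference of 0.01. Cd6, a receptor related to CD5, was found in 38.0% against 15.3%. Lck, the kinase carried by CD4 and CD8, had a mean of 2.32 against 2.96. Themis, a thymocyte signaling protein kept in the preselection list, was found in 46.7% against 62.0%. Of 14 apoptosis regulators in the table that no gate used, 0 were higher and 1 was lower, Bcl2l1, whose BCL-XL protein keeps preselection cells alive, at 11.3% against 28.7%. Bcl2l11, the death inducer BIM, was found in 10.7% against 1.33%. Of 14 genes in the list of RGS proteins and G protein subunits, 0 were called, with differences from -0.24 to 0.24, but the 7 that passed the filter were G protein subunits and the other RGS genes were too rare to compare. Of 19 migration genes 1 was called, Klf2, which was 0.28 higher. Of 13 genes of the IL-7 receptor pathway and Socs list, 1 was higher and 3 lower, and Socs1, an inhibitor of cytokine signals, was found in 30.7% against 42.0%. Of 28 cell cycle genes 1 was higher and 3 were lower, Ccnd3 most, at 1.71 against 2.59.

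Against the later selected cells, the onset cells had higher values of Trac, Trbc2, Cd27 and Sh2d1a, which encodes the SLAM adapter SAP, and lower values of 4 MHC class I and 8 later maturation genes. Of 2273 genes compared, 78 (3.43%) were higher and 67 (2.95%) lower, with a median of 0.01. With no filter these shares were 0.883% and 0.793% of 8831 genes. This comparison and the next share the onset cells with the one above, so their values are set side by side and not treated as separate support. The later selected gate was also filled after the onset cells had been taken out.

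Gm4258, a predicted gene, had the largest excess over later selected cells, 1.37, at 70.7% of onset cells (62.7% to 77.8%) against 35.3% (27.7% to 43.5%). It was found in 95.3% of rearranging and 31.7% of mature cells, so its share fell from rearranging to onset to later selected cells. The mature share lay within the later selected interval. By rank of the score Gm4258 had no steady order. It was found in 84.0% of ranks 1 to 50, 52.0% of ranks 101 to 150 and 76.0% of ranks 451 to 600. Sh2d1a, which encodes SAP, was found in 66.7% (58.5% to 74.1%) against 38.7% (30.8% to 47%), and 69.3% of rearranging cells. Ap3s1, a subunit of a vesicle adaptor, was found in 62.7% against 40.0%. These 3 genes were therefore closer to the rearranging than to the later selected level. Cd27, a costimulatory receptor of the TNF receptor family, differed from them in being highest in onset cells, at 2.47 ± 1.07 against 2.11 ± 0.98 in rearranging, 1.69 ± 1.05 in later selected and 1.65 ± 1.07 in mature cells. Its shares in onset (80.2% to 91.7%) and rearranging cells (72.7% to 86.1%) overlapped.

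Trac was likewise highest in onset cells, with means of 2.48, 1.26, 1.83 and 2.09 in onset, rearranging, later selected and mature cells, but its share in mature cells, 78.7% (72.4% to 84.1%), overlapped the onset share. Tcf7, which encodes the factor TCF1, was 2.07 in onset and 1.54 in later selected cells, and Ikzf1 1.22 and 0.72. Cd8a and Cd8b1 exceeded the later selected cells by 0.30 and 0.27. The shares overlapped, at 60.7% (52.4% to 68.5%) against 48.7% (40.4% to 57.0%) for Cd8a. Of the 27 TCR-induced genes, 2 were higher and 0 lower, with a median of -0.01. The higher ones were Dusp2 at 43.3% against 23.3% and Nfkbia at 41.3% against 27.3%. Cd69, at 22.7% (16.2% to 30.2%) against 16.0% (10.5% to 22.9%), and Egr1, at 19.3% (13.3% to 26.6%) against 9.33% (5.20% to 15.2%), had overlapping intervals. Hivep3, a zinc finger factor named after its values had been seen, was found in 28.0% of onset cells and 6.67% of later selected cells.

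Some MHC class I genes were lower than in later selected cells. Of 16 listed genes 4 were lower (B2m, H2-D1, H2-K1 and Psme2) and 0 higher, with a median of -0.11. B2m, the light chain of every class I molecule, had a mean of 1.69 ± 1.30, a median of 1.63 and a range from 0 to 4.45 in onset cells, against 2.96 ± 1.32, a difference of -1.26. H2-D1, a class I heavy chain, was found in 36.0% of onset cells (28.3% to 44.2%) and 66.0% of later selected cells (57.8% to 73.5%). H2-K1, the other classical heavy chain, was found in 25.3% (18.6% to 33.1%) against 44.0% (35.9% to 52.3%). The heavy chains belong to a family whose reads can be shared, which leaves their separate values uncertain.

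Against rearranging cells the class I genes stood the other way, with differences of 0.36 for B2m, 0.28 for H2-D1 and 0.29 for H2-K1. These signs depended on the reference. Against all other eligible cells, which include the later selected cells, the differences were -0.48, -0.30 and -0.20. In class II cells, which express class I strongly, B2m was found in 100%, and the part of free RNA in these values was not tested.

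Of 23 genes of later maturation, 8 were lower than in later selected cells and 0 higher, with a median of -0.19. Cd52, a small surface glycoprotein, had 2.72 ± 1.49 in onset cells against 3.79 ± 1.46. Il7r, the IL-7 receptor alpha chain, was found in 4.67% (1.90% to 9.38%) against 26.7% (19.8% to 34.5%). Gimap4, a GTPase of lymphocytes, was found in 16.0% (10.5% to 22.9%) against 45.3% (37.2% to 53.7%). Id2, an inhibitor of E proteins like the rule gene Id3, was found in 13.3% (8.34% to 19.8%) against 41.3% (33.4% to 49.7%). Some of the later selected cells carried markers of natural killer T and other cytotoxic or innate cells. The summed log2 value of 11 such markers reached 29.3 in later selected cells but 8.34 in onset cells. Klrk1 and Klrb1c were at 0 in onset cells. The part of cells with these markers in the Id2 difference and in the 8 lower maturation genes was not tested. Nkg7, which differed by -0.41, is 1 of those 8 genes and 1 of the 11 markers. Id2 is itself 1 of the 11 markers, so the sums include it. Ccnd2, a cyclin, was found in 14.7% against 38.7%.

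**Figure D3:**
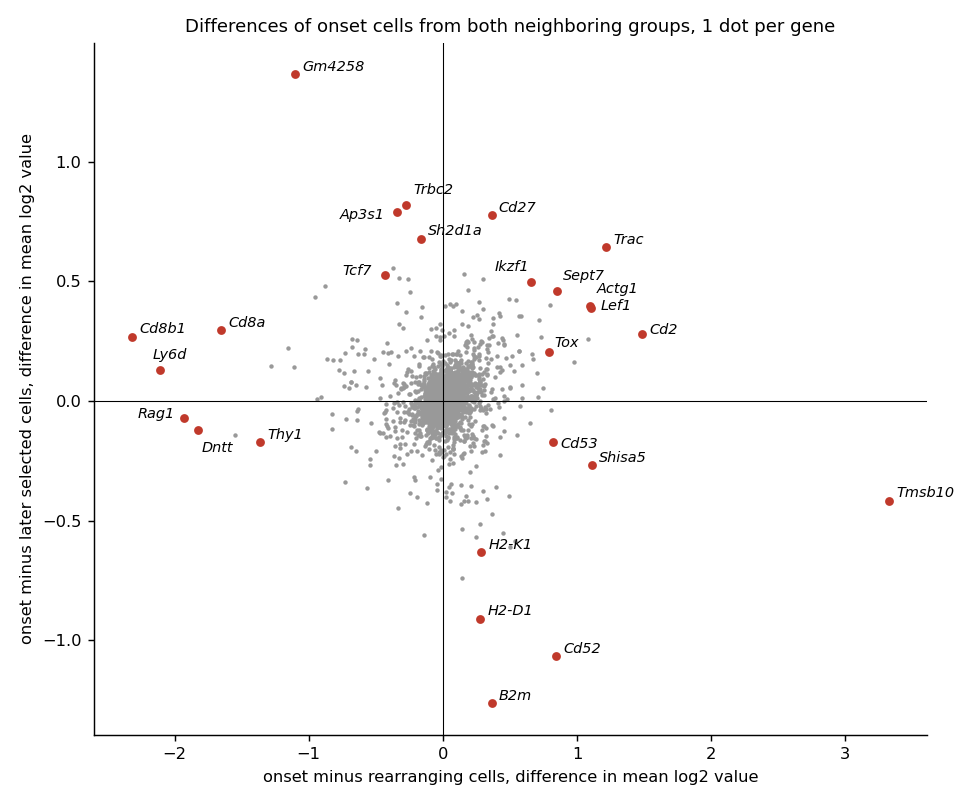
Each dot is a gene compared in both contrasts, with the difference in mean log2 value of onset minus rearranging cells on the horizontal axis and of onset minus later selected cells on the vertical axis. Trac, Cd2, Lef1 and Ikzf1 lie above 0 on both axes, Gm4258 and Trbc2 only on the vertical one, and B2m, Cd52 and Tmsb10 are higher than in rearranging and lower than in later selected cells. The axes share the onset cells, so a tilt of the cloud carries no meaning.

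Against the mature cells, 9 class I and 14 maturation genes were lower, and Ccr9, Sox4, Satb1 and Myb were higher. Of 2298 genes compared, 88 (3.83%) were higher and 134 (5.83%) lower, or 0.996% and 1.53% of 8831 with no filter. Ccr9, a chemokine receptor that guides cortical thymocytes, was found in 72.0% of onset cells (64.1% to 79.0%) against 39.6% of mature cells (32.8% to 46.7%). Sox4, a factor of immature lymphocytes, was found in 60.7% (52.4% to 68.5%) against 31.2%, and Satb1, a genome organizer, had 3.27 against 2.63. Myb was found in 31.3% (24.0% to 39.4%) against 10.4% (6.55% to 15.5%). Of 18 lineage and identity factors 6 were higher and 1 was lower, Runx3, which differed by -0.28. Cd69, at 22.7% against 8.91%, and Egr1, at 19.3% against 3.47%, were among 4 of 27 TCR-induced genes that were higher, with 0 lower and a median of 0.03.

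Lower than in mature cells were 9 of 16 class I genes, with a median of -0.28, and 14 of 23 late maturation genes, with a median of -0.30. Class II cells were not removed from the mature cells, and the highest summed log2 value of 10 APC markers was 38.3 in both groups. The part of class II cells in these differences was not tested. Il7r was not further apart here, at -0.31, than against later selected cells, at -0.49. The B2m difference was -1.82, and H2-K1 was found in 25.3% (18.6% to 33.1%) against 71.8% (65.0% to 77.9%). Klf2, a factor that drives exit from the thymus, was found in 12.7% (7.80% to 19.1%) against 49.5% (42.4% to 56.6%). Its target S1pr1, the receptor used for exit, was found in 4.00% (1.48% to 8.50%) against 18.8% (13.7% to 24.9%). Ifi27l2a, an interferon-induced gene, differed by -1.57, and Ms4a4b, a surface protein of mature T cells, was found in 22.7% against 51.5%. The small Ifi27l2a excess of onset over rearranging cells took the opposite sign, -0.02, against all other eligible cells, as did that of Gimap4, also at -0.02.

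Itm2a and Bcl2 defined the later selected gate, and both were also present in onset cells. Itm2a, a membrane protein induced during positive selection, had a mean of 1.41 ± 1.57, a median of 0.87 and a highest value of 5.42 in onset cells and was found in 52.0% (43.7% to 60.2%). Bcl2, the survival factor of selected cells, was found in 41.3% (33.4% to 49.7%). The rearranging cells gave 4.00% and 6.67%, but they were drawn after the later selected gate had taken eligible cells rich in both genes, and the part of this order was not tested. In class II cells Itm2a was found in 6.67%.

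The onset cells were not uniform. As deposited, 90 had Itm2a above 0 and 60 had it at 0, with median depths of 2001 and 1830 steps. Cd8b1, Cd8a, Ly6d and Thy1 were lower in the cells with Itm2a. Cd8b1 was found in 51.1% of them (40.4% to 61.8%) and 86.7% of those without (75.4% to 94.1%), and Cd8a in 50.0% (39.3% to 60.7%) against 76.7% (64.0% to 86.6%). Ly6d was found in 28.9% (19.8% to 39.4%) against 51.7% (38.4% to 64.8%), with overlapping intervals, and Thy1 had a mean of 0.99 against 1.86. Cd4, at 23.3% (15.1% to 33.4%) against 38.3% (26.1% to 51.8%), had overlapping intervals. Tmsb10, Cd53 and Bcl2 were higher with Itm2a. Tmsb10 had 5.41 against 4.35, Cd53 was found in 48.9% (38.2% to 59.7%) against 25.0% (14.7% to 37.9%), and Bcl2 in 52.2% (41.4% to 62.9%) against 25.0% (14.7% to 37.9%). Gata3, at 33.3% against 36.7%, and H2-K1, at 24.4% against 26.7%, had overlapping intervals.

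The TCR-induced genes did not all follow Itm2a. Cd69 was found in 28.9% (19.8% to 39.4%) against 13.3% (5.94% to 24.6%), with overlapping intervals, whereas Egr1 was found in 18.9% against 20.0% and Tox in 50.0% against 53.3%. The intervals of Egr1, 11.4% to 28.5% and 10.8% to 32.3%, leave room for a difference either way. Rag1 was found in 24.4% against 31.7%. This division was made within cells of 1 library and was chosen after the values had been seen.

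**Figure D4:**
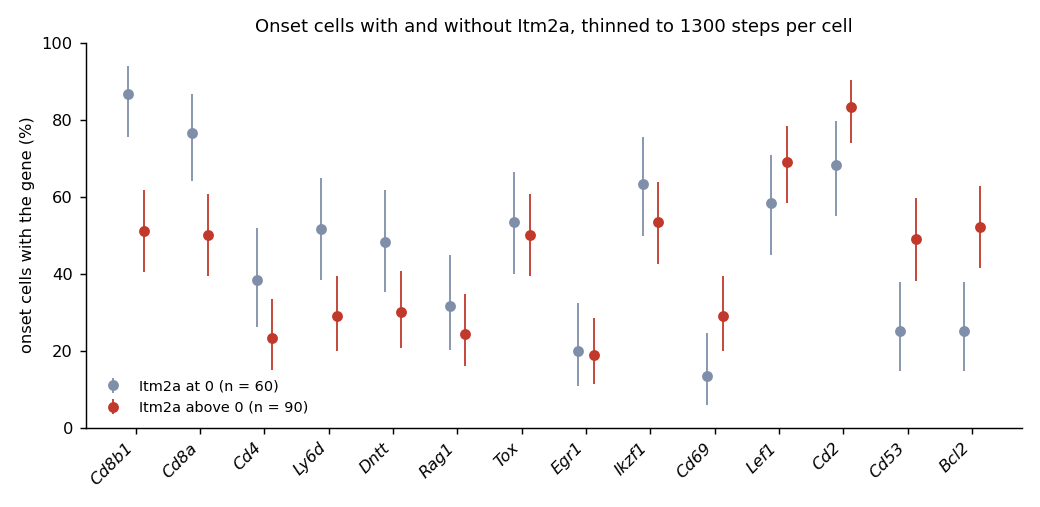
Points show the percent of onset cells with each gene after thinning to 1300 steps, for the 90 cells with Itm2a above 0 and the 60 with Itm2a at 0, and lines are exact 95% binomial intervals. Cd8b1 and Cd8a are lower, and Cd53 and Bcl2 higher, in cells with Itm2a, whereas Egr1 is at 18.9% and 20.0%.

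Along the rank of the score, genes the rule had not used changed at different places. Ranks 1 to 150 are the members, and bins of 50 were read inside them. Cd69 was found in 28.0%, 30.0% and 10.0% of the 3 member bins from the top and in 12.0% of ranks 151 to 300. Dusp2 gave 50.0%, 52.0%, 28.0% and 20.0%, and Hivep3 40.0%, 26.0%, 18.0% and 6.67%. Each bin of 50 has wide intervals. Tox declined more evenly, from 60.0% in ranks 1 to 50 to 35.3% in ranks 151 to 300 and 9.88% in ranks 601 to 762. Cd2 went from 88.0% at the top to 68.0% in the lowest members and 42.0% just outside.

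Rag1 ran the other way. It was found in 32.0%, 24.0% and 26.0% of the member bins, 41.3% of ranks 151 to 300 and 63.3% of ranks 451 to 600, and in 52.5% of ranks 601 to 762. Dntt gave 40.0%, 38.0% and 34.0% inside the members and 56.7% just outside. H2-K1 was lowest at the top, at 14%, reached 40.0% in ranks 101 to 150 and lay between 24.7% and 35.3% outside the members. Il7r stayed at or below 10.7% in every bin. Median depth lay between 1888 and 2046 steps in all bins.

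**Figure D5:**
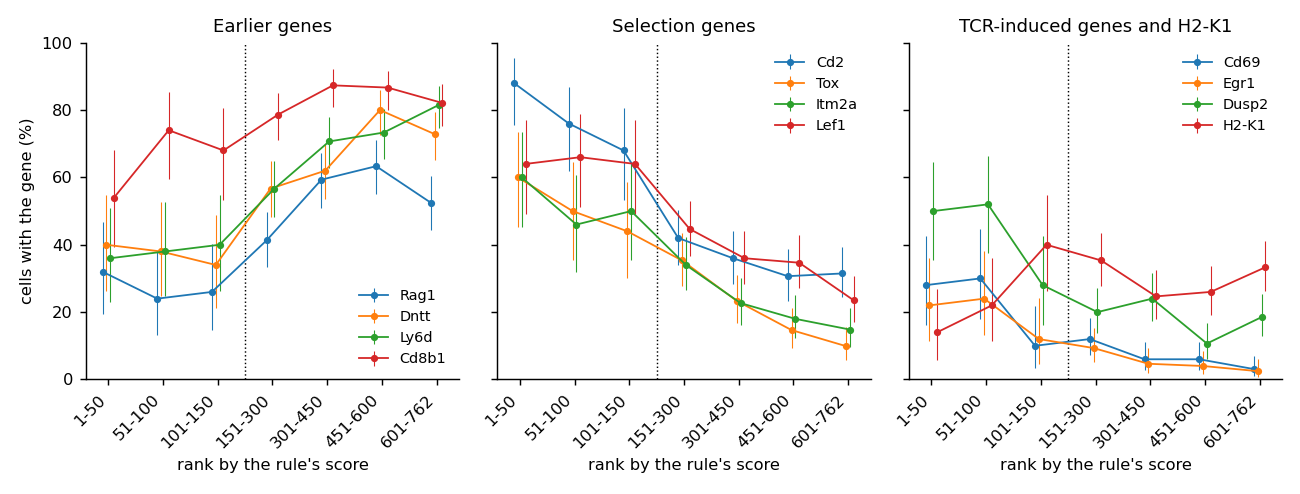
Points show the percent of cells with each gene after thinning to 1300 steps in bins of rank by the score, from the highest score on the left to the lowest on the right, and lines are exact 95% binomial intervals. The dotted line marks the limit at rank 150, to the left of which are the onset cells. To the right of it Ly6d increases and Tox decreases, Cd2 is lower than among the members, and Rag1 increases to 63.3% in ranks 451 to 600 and is at 52.5% in the last bin.

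Markers of other cell types were read in the onset cells. Of 10 APC markers 9 were found in at least 1 onset cell, 8 in at least 5% of them and Cd79a in none. Their summed log2 value had a median of 1.09 in onset, 0.99 in rearranging, 1.12 in later selected and 1.63 in mature cells, and it reached 6.55, 19.0, 30.9 and 38.3. Of 7 listed gamma delta T genes that were measured, 4 were found, at sums of up to 2.49, with Sox13, Maf and Blk at 0, and of 7 DN markers 6 were found, at sums of up to 3.73. The table held 13 markers of agonist-selected cells, and 12 of them were found, at sums of up to 8.44 against 4.28 in rearranging, 12.2 in later selected and 11.3 in mature cells. Foxp3, which defines regulatory T cells, was above 0 in 0 onset cells, but also in only 1 later selected and 2 mature cells, so its zeros say little about such cells here. All 4 stromal markers in the table were found, at sums of up to 1.85. The erythroid markers summed to 13.3 in 1 onset cell, the highest sum of these groups, against 5.27 at most in the other eligible cells and 1.41 in mature cells. Doublets were not called. No onset cell had more than 2247 detected genes.

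Open chromatin gave a second readout of the rule genes, but only by sort, since onset cells were not sorted apart. The sorts held 125 DP, 119 CD4, 116 CD8 and 182 DN cells, with 478264, 558091, 494645 and 1108749 counts in peaks. Each sort is 1 sample, and values are counts per 10000 with exact Poisson 95% intervals for counting error alone. Around the Ikzf2 starts, the 4000 bp peaks at chr1:69685986-69689985 and chr1:69681307-69685306 (GRCm38), which cover its promoters, gave 0.0418 in DP cells (0.00506 to 0.151, from 2 counts). CD4 and CD8 cells together gave 0.209 (0.131 to 0.316, from 22 counts) and DN cells 0.460 (0.343 to 0.605). The ratio of CD4 and CD8 to DP cells was 5.00 (1.23 to 43.8) at the promoters and 2.67 within 50000 bp of the gene. The promoter intervals of both overlapped, and that of DN cells lay above them.

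The promoter peaks of the other rule genes gave like values in DP and in CD4 and CD8 cells. Cd28 gave 0.627 against 0.617, Tespa1 0.418 against 0.380, Id3 0.356 against 0.323 and Cd5 0.230 against 0.257. Rgs10 gave 0.125 from 6 counts against 0.0855 from 9. These counts are few, and for Cd5 the ratio of single-positive to DP cells was 1.12 with an interval of 0.535 to 2.49. Within 50000 bp of the gene, the ratio of CD4 and CD8 to DP cells was 1.92 for Cd28, 1.43 for Cd5, 1.00 for Rgs10, 0.999 for Tespa1 and 0.698 for Id3. The Id3 ratio joined unlike sorts. Cd28 gave 1.78 in DP cells (1.42 to 2.20) and 3.42 in CD4 and CD8 cells (3.08 to 3.79), whereas Id3 gave 1.72 in DP cells (1.36 to 2.13), 1.64 in CD8 cells (1.30 to 2.04) and 0.806 in CD4 cells (0.588 to 1.08). Tox gave 1.05 (0.776 to 1.38) against 2.10 (1.83 to 2.40). Rag1, for comparison, gave 0.836 at its promoter in DP cells (0.598 to 1.14), 0.384 in CD8 cells (0.231 to 0.600) and 0 counts in CD4 cells, an upper bound of 0.0661. Cell labels fall in blocks of numbers below and from 31000. In the lower block, Ikzf2 gave 0.0471 in DP and 0.208 in CD4 and CD8 cells and Rag1 0.895 and 0.208, and in the upper block Ikzf2 had 0 and 3 counts and Rag1 2 and 0, too few to compare.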

How the data were processed

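The authors aligned the scRNA-seq reads with Cell Ranger 1.3.1 to GRCm38.p5, filtered cells and genes, and deposited quantile-normalized log2 values. The methods give an upper limit of 4500 detected genes, which 1986 of the 1993 deposited cells met. For scATAC-seq they deposited raw counts per peak, made with Bowtie2, Picard and MACS2 on merged cells; 1446 columns outside the 4 sorts were not used. The peak build was checked: 27.9% of peak centers lay within 2000 bp of a protein-coding start of GENCODE vM21, against 9.41% after a shift of 100000 bp.

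The members and gene lists were chosen with earlier results of these data known. Means of log2 values were compared between groups of cells, with genes of the gates left out. Named genes were the 10 with the largest difference each way in each comparison, plus genes of the lists. Shares were taken after thinning each cell to 1300 steps with a fixed seed. The steps equal counts only where every count from 1 up occurs in a cell. The scripts were tested on simulated data. Alternatives were other gate sizes and gate genes, z scores, coreceptor-positive cells, removal of the 5% of cells with most genes, thinned values, other filters, a threshold of 0.5 and another reference group. Python 3.11.15, numpy 2.4.6, pandas 2.3.3 and scipy 1.17.1 were used.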

Additional observations from a re-analysis of the deposited data

How the results depend on the processing

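Over 213 named values, 1483 recomputed values kept their difference in shares of cells above 0 within its counting interval. Another 85 left it, and for 8 the difference in mean log2 value took the opposite sign. These shares were of deposited values and not thinned, except in the setting of thinned steps. None left the interval with 200 onset cells, without Ikzf2 in the rule, with z scores, or after the 5% of cells richest in detected genes had been left out. On thinned steps, genes higher and lower numbered 73 and 87 against rearranging cells, 31 and 32 against later selected cells, and 40 and 60 against mature cells, where fewer genes passed the filter. At a difference of 0.5 they numbered 39 and 52, 12 and 14, and 18 and 42. Against all other eligible cells in place of rearranging cells they numbered 80 and 83, and Trbc2 became 0.23, Satb1 0.26, H2-K1 -0.20, H2-D1 -0.30, B2m -0.48, Gimap4 -0.021 and Ifi27l2a -0.0196. With the 47 onset cells that had Cd4 and Cd8a above 0, 118 genes were higher than in later selected cells and Cd4 became 0.21 against rearranging cells. Apart from what these settings fix by construction (fewer genes or cells, a higher threshold, a selection for Cd4), the cause was not tested. The Cd28 ratio of CD4 and CD8 to DP cells in chromatin was 0.984 at the promoter and 1.92 within 50000 bp. No paired analysis was possible because each group came from 1 library or sort. With 1 library, no spread between animals could be measured, and genes seen in few cells are limited by depth.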

Other observations

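Some translation genes, which were picked after their values had been seen and stand for no list, had lower values than in later selected or mature cells. Eif1, an initiation factor, went the other way, at 3.42 in onset and 2.96 in later selected cells. Eef1b2 and Eef1g, subunits of the factor that reloads elongation factor 1, had mean log2 values of 1.87 and 1.51 in onset cells, 2.48 and 2.09 in later selected cells, and 2.61 and 2.27 in mature cells. Both were higher than in rearranging cells, by 0.50 and 0.54. Npm1, a nucleolar protein of ribosome assembly, had 1.78 in onset, 2.20 in later selected and 2.39 in mature cells. Rack1, a protein of the small ribosomal subunit, had 2.59 in onset and 3.20 in mature cells. Within the onset cells, Eef1g was found in 75.6% of those with Itm2a and 48.3% of those without. Gm10073, Gm12840 and Gm2000, which were lower in onset than in mature cells by -0.81, -1.12 and -0.69, are predicted genes that may share reads with near copies, so their values are uncertain.

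Of 15 measured glycolysis genes, 3 (Gapdh, Eno1 and Ldha) were higher in onset than in rearranging cells and 0 lower, with a median difference of 0.05. Against all other eligible cells Gapdh differed by 0.20 and Eno1 by 0.13, which is below the threshold, and Ldha by 0.38. Eno1, an enolase, was found in 45.3% of onset cells, 18.0% of rearranging cells and 55.3% of later selected cells. Ldha, a lactate dehydrogenase chain, was found in 59.3%, 38.7% and 53.3%, and Ldhb, the other chain, ran differently, at 54.7%, 66.7% and 32.7%.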
